A study of Homo sapiens with 24 samples.

Results

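The comparison described here is that of SW480 cells carrying Tet2CD with SW480 cells carrying the empty vector, over all treatments. It was taken by label, and holds 12 of the 24 RNA-seq libraries of the series, 6 with Tet2CD and 6 with vector. SW480 is an established human colorectal cancer line, and the remaining 12 libraries came from SW620, a second line from the same patient. Cells were infected with a lentivirus for Tet2CD, the catalytic domain of TET2, or with the empty lentivirus, and all were selected with puromycin at 5 µg/ml. Each construct was kept for 24 h with DMSO, with TGFB1 at 4 ng/ml or with RepSox at 1 µM, which blocks the kinase of the type I TGF-beta receptor, and each of these 3 treatments has 2 libraries per construct. The study's text gives another ligand mix and duration than the labels, which are followed here. The Tet2CD cells express the domain apart from the rest of TET2, and the sources do not say whether paired libraries were grown as separate cultures, so p-values measure a spread between libraries that may be technical. The study used this line to ask which genes respond to TET2 activity in colorectal cancer cells.

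TET2 is a dioxygenase that oxidises 5-methylcytosine to 5-hydroxymethylcytosine and further products, which are then lost by dilution or repair, so that methylated CG sites can become unmethylated. In tumour cells dense methylation of promoters goes with silence of germline genes, of some tissue-specific and matrix genes and of one parental copy of imprinted genes. RORA, a nuclear receptor, and SPARC, a secreted matrix protein, are the genes that the study followed.

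Because CG pairs are the sites on which TET2 acts, the starts of 7 genes on which the results turn are shown first, as the 300 bases that span the start given by RefSeq (GRCh38.p14, 5′ to 3′ on the gene's strand, with each CG in capitals). They are 3 genes with large increases in Tet2CD cells, SPARC and RORA, and a pair of genes with large decreases. RORA has several starts, and the one shown is that of the table.
H19 (chr11:2001217-2001516, minus strand, 6 CG): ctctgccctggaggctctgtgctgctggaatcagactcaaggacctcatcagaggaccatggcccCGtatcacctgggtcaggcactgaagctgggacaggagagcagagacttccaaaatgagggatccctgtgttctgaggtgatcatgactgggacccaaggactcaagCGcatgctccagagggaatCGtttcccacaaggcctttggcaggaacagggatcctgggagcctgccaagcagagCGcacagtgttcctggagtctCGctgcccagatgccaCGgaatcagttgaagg
XG (chrX:2751790-2752089, plus strand, 8 CG): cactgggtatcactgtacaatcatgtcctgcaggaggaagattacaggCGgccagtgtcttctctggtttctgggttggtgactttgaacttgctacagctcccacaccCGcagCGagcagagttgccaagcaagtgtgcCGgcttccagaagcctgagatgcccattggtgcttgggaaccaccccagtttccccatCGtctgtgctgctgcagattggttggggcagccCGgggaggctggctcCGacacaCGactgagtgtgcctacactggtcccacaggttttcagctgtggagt
PNMA5 (chrX:152994067-152994366, minus strand, 23 CG): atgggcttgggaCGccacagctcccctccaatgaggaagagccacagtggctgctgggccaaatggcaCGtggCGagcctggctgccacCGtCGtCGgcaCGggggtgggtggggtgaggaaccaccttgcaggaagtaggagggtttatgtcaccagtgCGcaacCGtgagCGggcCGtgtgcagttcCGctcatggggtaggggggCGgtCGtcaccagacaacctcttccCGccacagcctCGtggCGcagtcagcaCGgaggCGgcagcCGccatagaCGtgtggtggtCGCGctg
SPARC (chr5:151686866-151687165, minus strand, 11 CG): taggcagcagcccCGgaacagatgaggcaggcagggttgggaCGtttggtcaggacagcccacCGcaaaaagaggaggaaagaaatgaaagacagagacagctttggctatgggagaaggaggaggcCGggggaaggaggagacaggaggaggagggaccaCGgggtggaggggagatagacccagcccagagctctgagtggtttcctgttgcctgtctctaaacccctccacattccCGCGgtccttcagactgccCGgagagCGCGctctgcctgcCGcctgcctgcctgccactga
RORA (chr15:60627481-60627780, minus strand, 1 CG): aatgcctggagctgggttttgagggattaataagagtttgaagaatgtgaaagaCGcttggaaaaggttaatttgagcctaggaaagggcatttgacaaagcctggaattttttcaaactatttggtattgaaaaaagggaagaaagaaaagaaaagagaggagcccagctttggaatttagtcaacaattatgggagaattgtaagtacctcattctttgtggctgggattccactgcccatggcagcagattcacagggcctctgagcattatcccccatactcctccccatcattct
PLEK (chr2:68365032-68365331, plus strand, 4 CG): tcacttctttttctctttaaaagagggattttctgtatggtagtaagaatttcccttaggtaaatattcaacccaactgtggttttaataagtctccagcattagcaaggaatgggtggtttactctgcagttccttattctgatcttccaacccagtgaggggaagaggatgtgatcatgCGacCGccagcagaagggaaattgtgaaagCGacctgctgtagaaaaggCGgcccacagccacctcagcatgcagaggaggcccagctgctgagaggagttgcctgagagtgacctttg
CACNB4 (chr2:152099118-152099417, minus strand, 23 CG): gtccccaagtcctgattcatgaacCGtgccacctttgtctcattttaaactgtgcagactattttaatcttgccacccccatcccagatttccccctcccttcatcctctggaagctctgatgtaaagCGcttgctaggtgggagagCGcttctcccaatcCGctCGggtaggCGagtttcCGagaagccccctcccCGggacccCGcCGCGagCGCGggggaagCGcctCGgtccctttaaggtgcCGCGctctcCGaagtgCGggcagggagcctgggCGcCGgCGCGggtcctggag

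The number of CG pairs in these windows ran from 1 to 23. The letters searched were CG, which read the same on both strands, and 95.8% of the 27305 promoters in the table hold at least 1. Genes that rose (2805 with a promoter in the table) had a median of 26 CG (quartiles 17 and 34), genes that fell (2386) had 27 (19 and 35), and all 10830 genes tested had 26 (18 and 35), so the CG count of the start differed little between them. Among genes that rose by at least 8-fold and were called with and without the 3 libraries described next, a group chosen after the values were seen, the median was 13 over 120 genes. Genes called higher in both ways that averaged under 1 CPM in vector libraries had a median of 15 CG (128 genes), against 16 over all 197 tested genes that low. The 128 are among the 197, and a gene that low could pass the filter on counts almost only through Tet2CD libraries. These medians therefore do not set genes that rose against genes that did not. A count of CG letters says nothing about methylation, which was not measured in these libraries.

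Of the 6 Tet2CD libraries, 3 stood apart. The libraries numbered 21 (DMSO), 22 (TGFB1) and 23 (RepSox) had 10.3%, 12.1% and 15.4% of their counts on ribosomal protein genes, against 5.87% to 7.55% in the other 9. Their mean gene GC content, weighted by counts, was 52.9% to 54.0%, against 50.9% to 52.2%, and their total expected counts were 2146123 to 2713878, against 3232820 to 4199283. The other 3 Tet2CD libraries, numbered 33, 34 and 35, also lay above all 6 vector libraries in GC content (at least 51.9%, against at most 51.6%). The SD of the log2 difference between the 2 libraries of a group was 0.661 to 1.11 with Tet2CD, where each pair holds 1 of these libraries, and 0.402 to 0.467 with vector. Counts of genes and of list members are therefore given with and without libraries 21, 22 and 23.

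**Figure D1:**
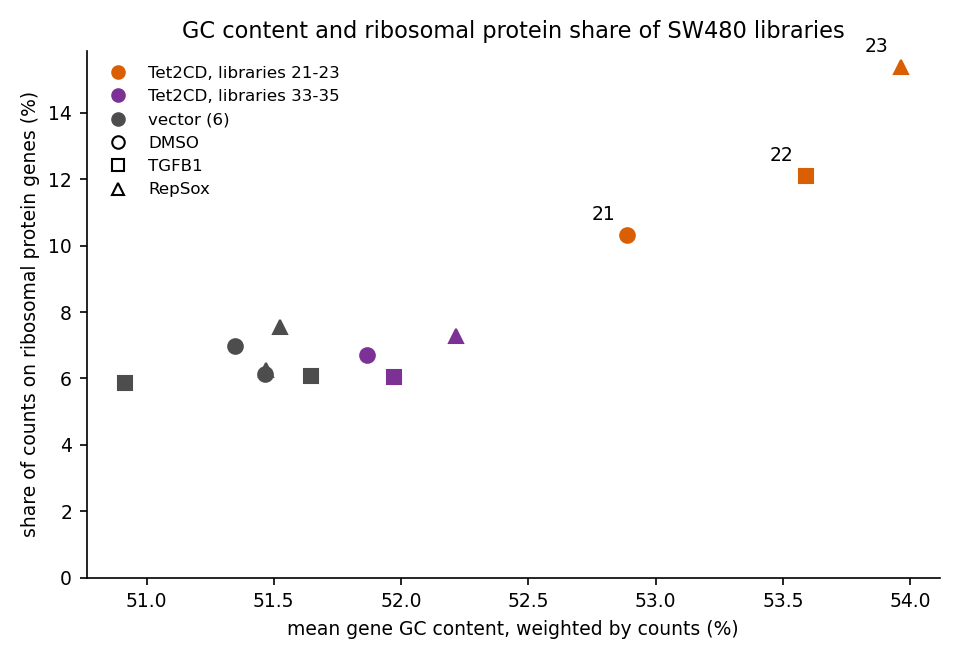
Share of counts on ribosomal protein genes (%, vertical axis) against mean gene GC content (%, horizontal axis), 1 point per SW480 library, with colour for construct and set and shape for treatment. The Tet2CD libraries 21, 22 and 23 lie at 10.3% to 15.4%, and the other 9 at 5.87% to 7.55%.

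TET2 itself, on chromosome 4, 105145875 to 105279816, plus strand (GRCh38), was 268 to 2581 CPM (median 1287) in Tet2CD libraries, against 10.1 to 23.4 CPM (median 19.2) in vector libraries. The groups did not overlap, and the lowest Tet2CD value was that of library 23. The log2 fold change was 6.21 ± 0.50 (adjusted p = 1.1e-05), and 6.79 without the 3 libraries; the counts do not tell the construct's transcripts from those of the cell's own gene. SPARC (chromosome 5, 151661096 to 151687165, minus strand) had 48.3 to 86.9 CPM (median 66.2) in Tet2CD libraries, against 0.254 to 6.83 CPM (median 1.79) in vector libraries, again without overlap. It rose by 4.76 ± 0.41 on the log2 scale (adjusted p = 1.6e-05), by 4.82 without the 3 libraries, and by 6.06, 4.32 and 4.37 with DMSO, TGFB1 and RepSox.

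RORA (chromosome 15, 60488284 to 61229319, minus strand) had 25.9 to 61.6 CPM (median 41.1) in Tet2CD libraries, against 22 to 69.1 CPM (median 35.5) in vector libraries, and the groups overlapped throughout. Its log2 fold change was 0.13 ± 0.25 (adjusted p = 0.68). Library by library, RORA had 51.7, 61.6 and 47.2 CPM in Tet2CD libraries 33, 34 and 35, and 35.0, 28.1 and 25.9 CPM in 21, 22 and 23. Without libraries 21, 22 and 23 the value was 0.45 (adjusted p = 0.045), so the call for RORA depended on those libraries. CDH1, the gene of the junction protein E-cadherin, had 92.3 to 191 CPM (median 114) in Tet2CD libraries, against 62.2 to 113 CPM (median 90.5) in vector libraries. Its log2 fold change was 0.50 ± 0.22 (adjusted p = 0.074), and 0.77 without the 3 libraries (adjusted p = 0.0025). CTNNB1, which encodes beta-catenin, had 535 to 1052 CPM (median 824) in Tet2CD libraries, against 828 to 1460.4 CPM (median 1252) in vector libraries. It fell by 0.51 ± 0.19 on the log2 scale (adjusted p = 0.04), but the value was -0.23 without those libraries (adjusted p = 0.074) and -0.05 after a correction for gene GC content and length (adjusted p = 0.66).

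**Figure D2:**
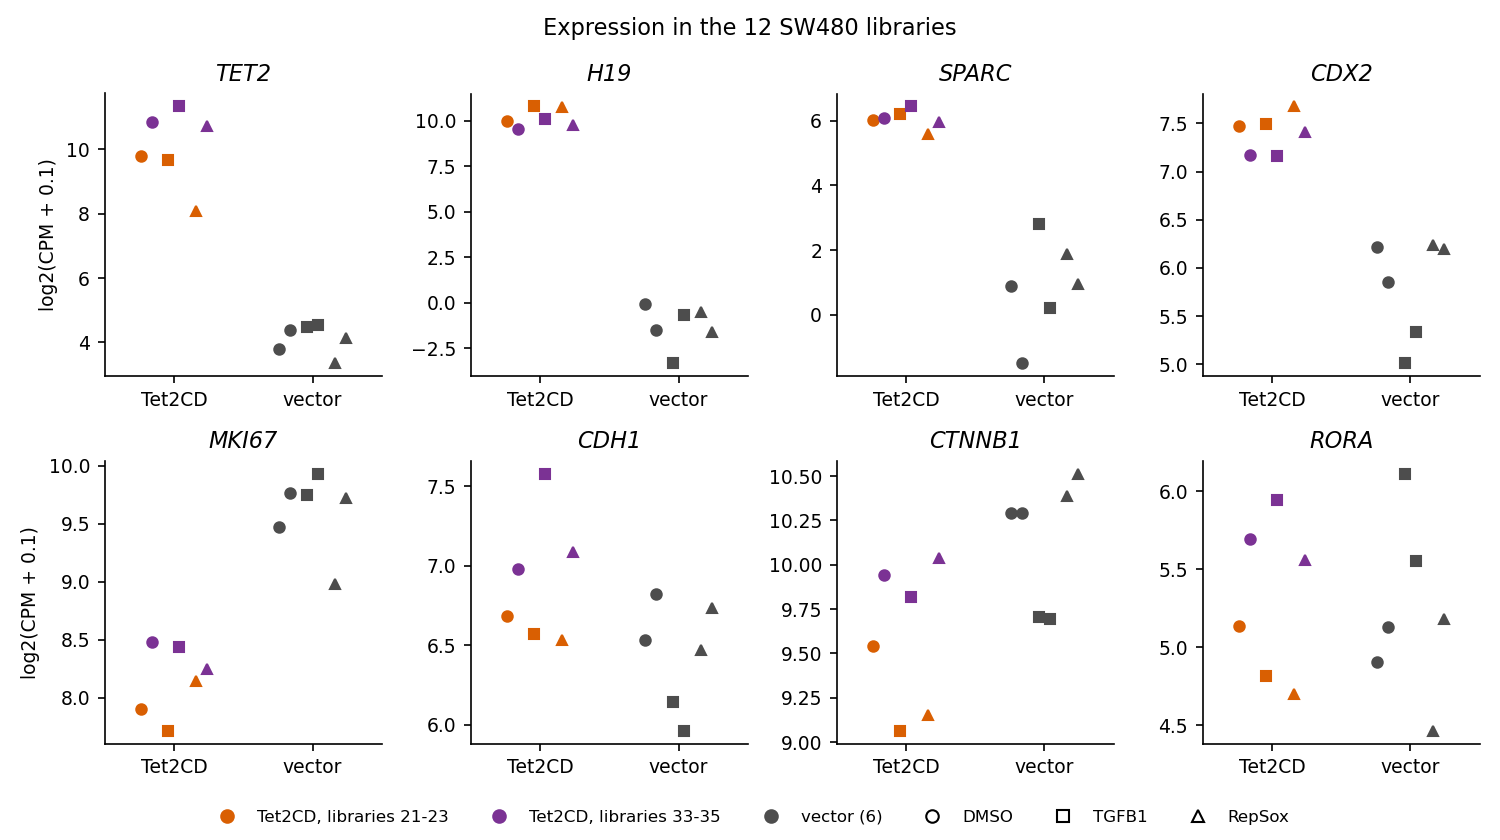
Expression (log2 of CPM + 0.1, vertical axes, each with its own range) of 8 genes in the 12 SW480 libraries, Tet2CD left of vector, with shape for treatment and orange for libraries 21, 22 and 23. TET2, H19, SPARC and CDX2 are higher and MKI67 is lower in every Tet2CD library, whereas CDH1, CTNNB1 and RORA overlap between the constructs, with the RORA values of libraries 33, 34 and 35 (47.2 to 61.6 CPM) above those of 21, 22 and 23 (25.9 to 35.0 CPM).

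Of 14167 genes tested with treatment as a block, 3718 (26.2%) were higher and 3003 (21.2%) lower in Tet2CD cells at an adjusted p under 0.05, and 1767 (12.5%) and 1058 (7.47%) of them by at least 2-fold. In all, 47.4% of genes were called. Without libraries 21, 22 and 23, 2584 of 14578 genes were higher (17.7%) and 2766 lower (19%). The genes past the threshold in the same direction both ways numbered 2214 and 2399 of 14047 (15.8% and 17.1%). All 6 Tet2CD libraries lay above all 6 vector libraries for 1607 genes (11.3%) and below them for 1448 (10.2%). Those that were also called with and without the 3 libraries numbered 1444 (10.3%) and 1340 (9.54%). The median log2 fold change over all genes tested was 0.03.

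**Figure D3:**
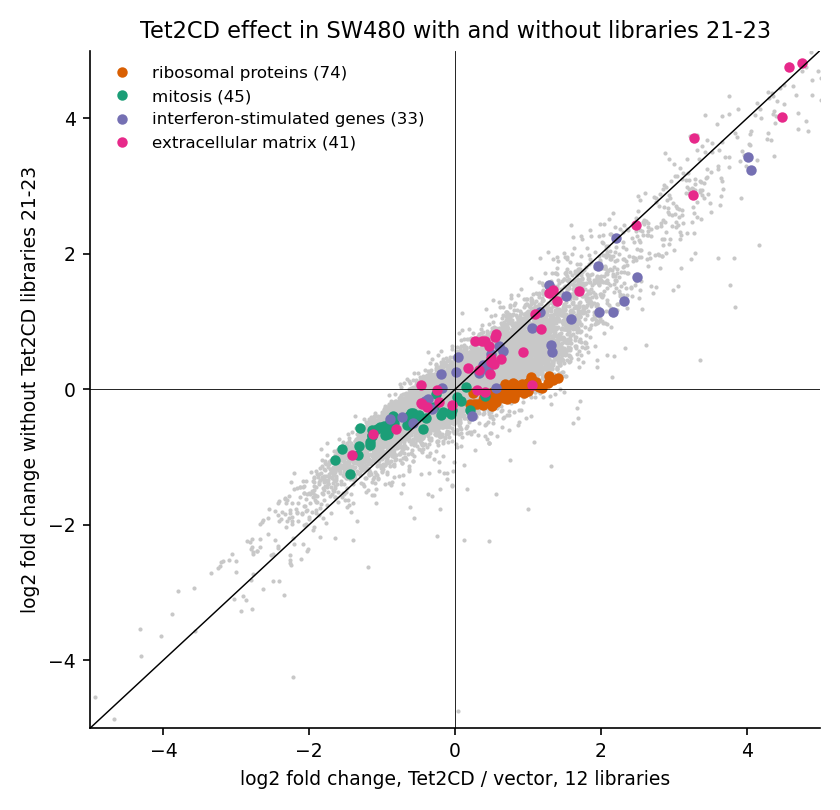
Log2 fold change of Tet2CD over vector for the genes tested, from all 12 libraries (horizontal axis) and without Tet2CD libraries 21, 22 and 23 (vertical axis), with 4 gene lists in colour and the line of equal values. Ribosomal protein genes lie at a median of 0.71 on the horizontal and -0.03 on the vertical axis, whereas mitosis genes lie below 0 on both (medians -0.66 and -0.48); genes past 5 on either axis are outside the frame.

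The effect varied with the length and GC content of genes. By length, the median log2 fold change was 0.68 in the shortest and -0.53 in the longest of 5 equal bins of genes, and by GC content it was -0.38 in the lowest and 0.58 in the highest bin. The same medians were, without libraries 21, 22 and 23, 0.19 and -0.29 by length and -0.16 and 0.24 by GC content, smaller but in the same order. When both properties were corrected in each library, 2979 genes were higher and 2830 lower, and 3815 of the 6704 genes called before and tested again (56.9%) kept their call. This correction was chosen after the data were seen, and its counts are given beside those of the lists.

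**Figure D4:**
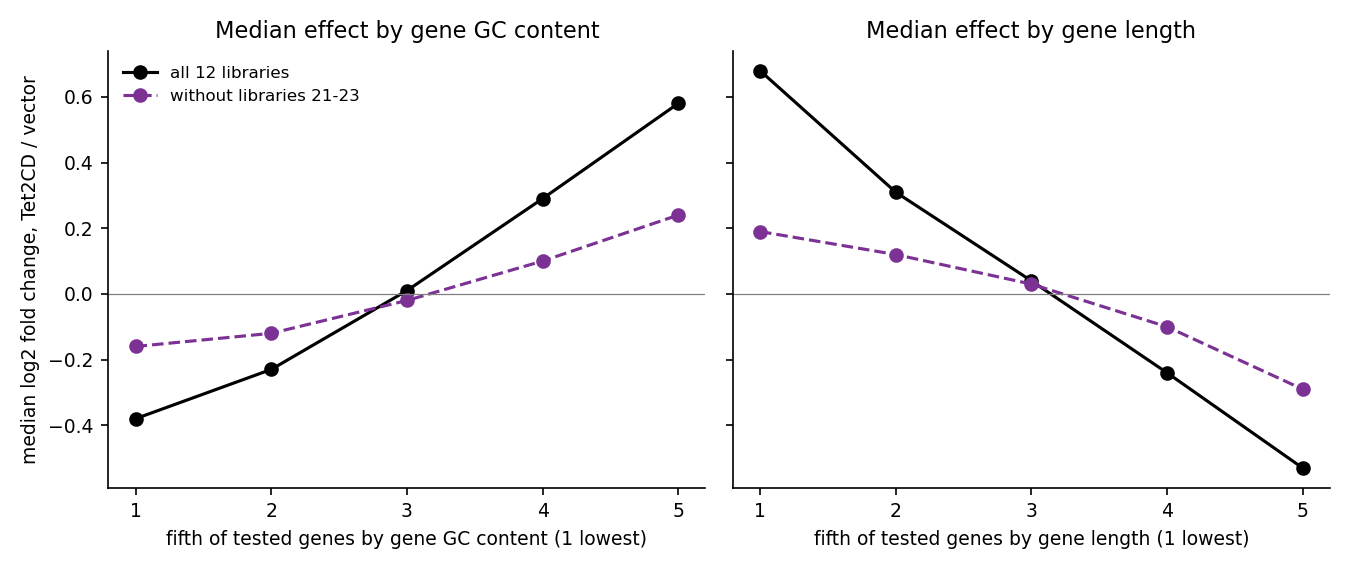
Median log2 fold change of Tet2CD over vector (vertical axis) in 5 equal bins of the tested genes by GC content (left) and by length (right), for all 12 libraries and without libraries 21, 22 and 23. With all libraries the medians run from -0.38 to 0.58 over GC content and from 0.68 to -0.53 over length, and without the 3 libraries from -0.16 to 0.24 and from 0.19 to -0.29.

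Beside TET2, the genes with the 11 largest increases had a median of at most 3.81 CPM in vector libraries. H19, an imprinted noncoding RNA next to IGF2 (chromosome 11, 1995176 to 2001470, minus strand), had 750.4 to 1758 CPM (median 1039.5) in Tet2CD libraries, against 0 to 0.869 CPM (median 0.393) in vector libraries, a log2 fold change of 11.41 ± 0.42 (adjusted p = 2.7e-08). AFAP1-AS1, an antisense RNA over AFAP1, had 159.6 to 211 CPM (median 199) in Tet2CD libraries, against 0 to 0.509 CPM (median 0.259) in vector libraries, a change of 9.30 ± 0.25. No source used here states a stranded count, so reads of AFAP1-AS1 and AFAP1 may not be told apart. In every one of the 6 Tet2CD libraries both RNAs lay above the highest vector library. Such a lack of overlap was a condition for being chosen among the largest increases.

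PNMA5, a paraneoplastic antigen gene on the X chromosome, had 4.48 to 10.9 CPM (median 8.76) in Tet2CD libraries and no count in any vector library, so it was at least 63-fold higher, taking 3 counts in the summed vector libraries as the floor. XG, the gene of a red cell surface antigen, had 12.5 to 24.5 CPM (median 21.4) in Tet2CD libraries against 1 count in all vector libraries, a ratio of 460.2 (95% exact counting interval 82.1 to 1.82e+04). By the same measure CKM, the muscle creatine kinase, had a ratio of 338.7 (60.3 to 1.34e+04), and NPTX1, a secreted neuronal pentraxin, had one of 127.6 (34.9 to 1.06e+03). These intervals cover counting error only.

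PTGDS, a prostaglandin D synthase, had 181 to 716 CPM (median 332) in Tet2CD libraries, against 3 to 6.08 CPM (median 3.81) in vector libraries. RNASE1, a secreted ribonuclease, had 152 to 488 CPM (median 238) in Tet2CD libraries, against 1.6 to 4.84 CPM (median 2.69) in vector libraries. CALML3, a calmodulin-like protein of epithelia, had 53.7 to 236 CPM (median 70.8) in Tet2CD libraries, against 0.29 to 2.04 CPM (median 1.29) in vector libraries. The highest Tet2CD value of each was in library 22 or 23. The log2 fold changes of these 3 were 6.62 ± 0.47, 6.49 ± 0.43 and 6.26 ± 0.49, and 5.66, 5.86 and 5.39 without libraries 21, 22 and 23. RAB34, a small GTPase of vesicle transport, rose by 7.85 ± 0.50, and RENBP, the renin-binding protein, by 6.67 ± 0.58.

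The 12 largest decreases were between 2.72 and 3.57 on the log2 scale, with vector medians of 4.12 to 118 CPM. ZFPM2, a cofactor of GATA transcription factors, had 0 to 0.985 CPM (median 0.128) in Tet2CD libraries, against 3.57 to 6.38 CPM (median 5.07) in vector libraries, a change of -3.57 ± 0.53 (adjusted p = 0.00056). SPTSSB, a small subunit of serine palmitoyltransferase, had 1.63 to 3.89 CPM (median 2.25) in Tet2CD libraries, against 12.7 to 20 CPM (median 18.6) in vector libraries, a change of -2.77 ± 0.22. No Tet2CD library reached the lowest vector library for either, as the choice of these genes required. B3GALT5, a galactosyltransferase, fell by 2.80 ± 0.35, CACNB4, a calcium channel subunit, by 2.87 ± 0.32, PLEK, a protein kinase C substrate best known in blood cells, by 2.94 ± 0.40, FLG, the epidermal protein filaggrin, by 2.81 ± 0.46, and DIRAS2, a Ras-like GTPase, by 2.78 ± 0.46.

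LINC00630, LINC02617 and BCAN-AS2 are noncoding RNAs with log2 fold changes of -3.00 ± 0.49, -2.79 ± 0.37 and -2.78 ± 0.43. LIMS3 fell by 2.72 ± 0.30, but it has near-identical copies among which the counting could split reads. CFAP298-TCP10L fell by 2.77 ± 0.64 and is a transcript read through from one gene into the next, with 0 CPM in 3 of the 6 Tet2CD libraries and 7.92 CPM in another. The estimates for both are uncertain for these reasons.

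Genes of mitosis were lower or not called. Of 45 members tested, 33 were lower and 0 higher (median log2 fold change -0.66, against 0.03 over all genes, of which 21.2% were lower). All 6 Tet2CD libraries lay below all 6 vector libraries for 25 members, and for 10.2% of all genes. MKI67, the proliferation antigen Ki-67, had 210.2 to 358 CPM (median 294) in Tet2CD libraries, against 505 to 977 CPM (median 853) in vector libraries, a change of -1.44 ± 0.19. CENPF, a kinetochore protein, and ASPM, a spindle pole protein, fell by 1.17 ± 0.22 and 1.33 ± 0.24. Without libraries 21, 22 and 23, 38 members were lower (median -0.48), and after correction for GC content and length 25 were (median -0.37). Over all genes 19% were lower without the 3 libraries, and 2830 of 14104 were lower after the correction. With that correction MKI67, CENPF and ASPM had -0.49, -0.52 and -0.42.

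Of 41 genes of DNA replication, 17 were lower and 2 higher (median -0.21), and 13 lower and 0 higher without the 3 libraries, and 10 and 2 after the correction. Over all genes 21.2% were lower and 26.2% higher. MCM2, a subunit of the replicative helicase, had 113 to 208 CPM (median 179) in Tet2CD libraries, against 237 to 296 CPM (median 288) in vector libraries, and fell by 0.74 ± 0.15. POLE, the leading-strand polymerase, fell by 0.62 ± 0.11. Among 24 CDK inhibitors and G1 cyclins, 4 were higher and 7 lower (3 and 8 without the 3 libraries and 5 and 8 after the correction for both properties). CDKN2C, an inhibitor of CDK4 and CDK6, rose by 0.81 ± 0.14, and so did the cyclin CCND3, by 0.87 ± 0.11. POLE and CCND3 had -0.41 and 0.44 after the correction.

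Immediate early genes, which growth factor signalling through the MAP kinases switches on, and feedback regulators of that pathway were lower in 19 of 37 cases and higher in 0 (median -0.71). The same counts were 21 and 0 without the 3 libraries, and 27 and 0 after the correction for GC content and length. With all libraries, 21.2% of all genes were lower and 26.2% higher. EGR1, a transcription factor of this response, had 22.3 to 56.7 CPM (median 35.9) in Tet2CD libraries, against 79.1 to 206 CPM (median 97.2) in vector libraries, a change of -1.70 ± 0.19 (adjusted p = 8.4e-05). DUSP5, a phosphatase of ERK, fell by 1.07 ± 0.12, and TRIB1, a pseudokinase, by 1.31 ± 0.13. The vector values of EGR1 were 168 and 206 CPM in the TGFB1 libraries 25 and 37, and 79.1 to 103 CPM in the other vector libraries. None came down to the highest Tet2CD value, 56.7 CPM in library 34, which also had TGFB1.

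Interferon-stimulated genes and genes of antigen presentation were mostly higher. Of 33 interferon-stimulated genes tested, 18 were higher and 3 lower (median 0.60, with 26.2% and 21.2% of all genes called), and 18 and 2 without the 3 libraries. IFITM1, a membrane protein that restricts virus entry, had 482 to 1308 CPM (median 728) in Tet2CD libraries, against 39.4 to 63.3 CPM (median 46.6) in vector libraries, a change of 4.02 ± 0.25 (adjusted p = 1.7e-06). BST2, or tetherin, had 77.1 to 261 CPM (median 123) in Tet2CD libraries, against 5.82 to 13 CPM (median 8.72) in vector libraries, a change of 4.06 ± 0.37, and MX1, an antiviral GTPase, had 46 to 72 CPM (median 61.2) in Tet2CD libraries, against 10.6 to 20.3 CPM (median 14.5) in vector libraries, a change of 1.96 ± 0.15. None of the 3 overlapped between constructs. OAS3, an antiviral enzyme, had -0.89 ± 0.28 (adjusted p = 0.022), -0.44 without libraries 21, 22 and 23 (adjusted p = 0.013) and -0.25 when both properties were corrected too (adjusted p = 0.054). Leaving out single libraries ended its call in 3 cases.

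Of 18 antigen presentation genes, 13 were higher and 2 lower (median 1.05), and 12 and 0 without libraries 21, 22 and 23 (median 0.63). With all libraries 26.2% of all genes were higher and 21.2% lower, and without the 3 these shares were 17.7% and 19%. HLA-B, a class I heavy chain, had 405 to 807 CPM (median 628) in Tet2CD libraries, against 126 to 186 CPM (median 147) in vector libraries, a change of 2.06 ± 0.16, and HLA-F rose by 1.65 ± 0.16; reads of the class I genes can be split among near-identical members. CD74, the invariant chain of class II molecules, had 93 to 217 CPM (median 154) in Tet2CD libraries, against 28.8 to 41.3 CPM (median 37.4) in vector libraries, a change of 2.03 ± 0.19. TAP2, a subunit of the peptide transporter, had a log2 fold change of -0.41 ± 0.15 with all libraries (adjusted p = 0.038) and did not pass without the 3 (adjusted p = 0.078). After correction for GC content and length 19 interferon-stimulated genes were higher and 2 lower, and 11 antigen presentation genes were higher and 1 lower, with 0.96 for HLA-F and 1.27 for CD74.

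**Figure D5:**
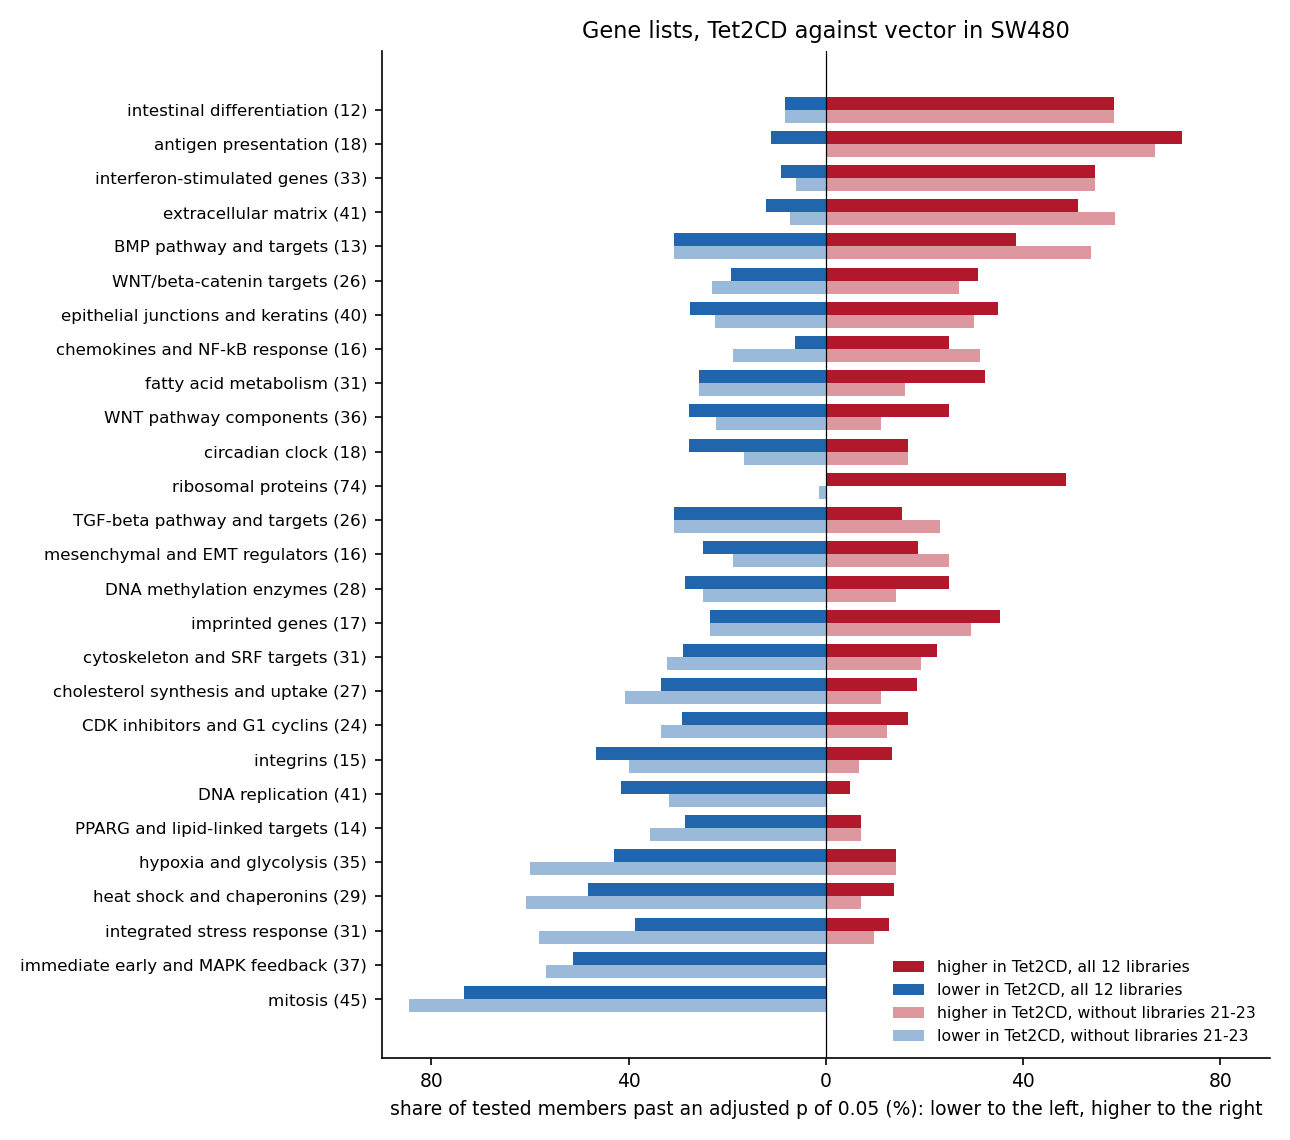
Share of tested members (%, horizontal axis, number tested in brackets) that were higher (red, to the right) or lower (blue, to the left) in Tet2CD cells for the lists with at least 10 members tested, dark for all 12 libraries and pale without libraries 21, 22 and 23. Mitosis and immediate early genes have 33 and 19 lower members and 0 higher, and the 36 higher ribosomal protein genes become 0 without the 3 libraries. With all libraries 26.2% of all genes are higher and 21.2% lower.

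Extracellular matrix genes were higher in 21 of 41 cases and lower in 5 (median 0.49), and in 24 and 3 without the 3 libraries. The shares over all genes were 26.2% and 21.2% with all libraries, and 17.7% and 19% without the 3. FBLN1, the matrix protein fibulin-1, had 104 to 248 CPM (median 154) in Tet2CD libraries, against 13.2 to 19.9 CPM (median 17.3) in vector libraries, a change of 3.26 ± 0.20. COL6A2, a chain of collagen VI, had 30.5 to 84.5 CPM (median 41.1) in Tet2CD libraries, against 1.01 to 3.69 CPM (median 1.83) in vector libraries, a change of 4.49 ± 0.28, and LAMC3, a laminin chain, had 10.1 to 17.5 CPM (median 12.6) in Tet2CD libraries, against 0 to 0.297 CPM (median 0.259) in vector libraries. SPARC is a member of this list too. Among the members that were lower, the laminin chains LAMA3 and LAMA5 had -1.41 ± 0.26 and -0.81 ± 0.16 and fibronectin, FN1, had -1.13 ± 0.30, or -0.66 without the 3 libraries. With GC content alone corrected, LAMA5 had -1.32. The correction for GC content and length gave 17 higher and 4 lower.

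Of 15 integrins, receptors for that matrix, 2 were higher and 7 lower (median -0.45), compared with 1 and 6 without the 3 libraries and 1 and 6 after the correction for GC content and length. Over all genes 26.2% were higher and 21.2% lower. ITGA2, the alpha chain of a collagen receptor, had 4.22 to 38.6 CPM (median 8.99) in Tet2CD libraries, against 40.1 to 146 CPM (median 60.5) in vector libraries, and fell by 2.42 ± 0.38, with -1.59 after that correction. ITGB2, the beta chain of leukocyte integrins, rose by 3.04 ± 0.30, with 3.26 to 5.83 CPM (median 5.14) in Tet2CD libraries and 0.253 to 0.798 CPM (median 0.587) in vector libraries. Cytoskeletal genes and targets of SRF were divided, with 7 higher and 9 lower of 31, compared with 6 and 10 without the 3 libraries and 8 and 14 after the correction for both. With all libraries these counts were near the shares over all genes. TPM2, a tropomyosin, had 212 to 658 CPM (median 306) in Tet2CD libraries, against 15.8 to 36.7 CPM (median 20.1) in vector libraries, a change of 4.14 ± 0.35, whereas the actin linkers MSN and FLNA fell by 1.30 ± 0.25 and 0.59 ± 0.11 (FLNA -1.04 with GC content alone corrected).

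Of 12 measured genes of intestinal differentiation (42 were listed), 7 were higher and 1 lower (median 0.89), with the same counts without the 3 libraries and after the correction. The shares over all genes were 26.2% and 21.2% with all libraries. CDX2, a transcription factor that sets intestinal identity, had 143 to 204 CPM (median 174) in Tet2CD libraries, against 32.1 to 75.5 CPM (median 65.4) in vector libraries, a change of 1.58 ± 0.17 (adjusted p = 8.3e-05). VIL1, the microvillus protein villin, had 74.7 to 124 CPM (median 87.6) in Tet2CD libraries, against 43 to 62.4 CPM (median 47.2) in vector libraries, and HNF4A, a nuclear receptor of gut epithelium, had 42 to 76.6 CPM (median 53.2) in Tet2CD libraries, against 26.1 to 35.4 CPM (median 27.5) in vector libraries. They rose by 0.89 ± 0.15 and 0.88 ± 0.13, and no library of either construct crossed into the range of the other. KLF4, a factor of differentiating epithelium, rose by 1.57 ± 0.22, whereas KLF5, a factor of proliferating crypt cells, had -1.08 ± 0.24, and -0.68 without the 3 libraries. ANPEP, a brush border peptidase, rose by 4.41 ± 0.53 but reached only 6.03 CPM.

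Of 40 epithelial junction and keratin genes, 14 were higher and 11 lower, near the shares over all genes (26.2% and 21.2%), compared with 12 and 9 without the 3 libraries and 9 and 10 after the correction for GC content and length. PRSS8, a membrane serine protease, had 9.36 to 37.4 CPM (median 16.2) in Tet2CD libraries, against 0 to 0.892 CPM (median 0.127) in vector libraries, a change of 6.11 ± 0.58. CLDN3 rose by 2.18 ± 0.28 and CLDN1 fell by 1.34 ± 0.26, both being claudins of tight junctions, and among keratins KRT7 rose by 3.27 ± 0.39 and KRT23 fell by 1.10 ± 0.12. The claudins had 0.94 and -0.80 after the correction. Of 16 mesenchymal genes and regulators of the epithelial-mesenchymal transition, 3 were higher and 4 lower, compared with 4 and 3 without the 3 libraries and 3 and 2 after the correction for both. FOXC2, a transcription factor among them, rose by 3.09 ± 0.44, with 2.33 to 4.85 CPM (median 2.87) in Tet2CD libraries, against 0 to 0.579 CPM (median 0.403) in vector libraries.

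DKK4, an inhibitor that beta-catenin itself induces, had 33.2 to 56.2 CPM (median 41.5) in Tet2CD libraries, against 0.253 to 5.54 CPM (median 2.16) in vector libraries, a change of 4.29 ± 0.36 (adjusted p = 1.5e-05). NOTUM, a secreted enzyme that inactivates WNT ligands, had 459.6 to 822 CPM (median 616) in Tet2CD libraries, against 133 to 271 CPM (median 199) in vector libraries, a change of 1.63 ± 0.18. SOX9 and LEF1, which are also targets of the pathway, had -0.65 ± 0.15 and -0.62 ± 0.16, and -0.41 and -0.37 without the 3 libraries. After the correction NOTUM, SOX9 and LRP6 had 0.94, -0.31 and -0.49. Of the 26 WNT targets tested, 8 were higher and 5 lower, near the shares over all genes (26.2% and 21.2%), compared with 7 and 6 without the 3 libraries and 5 and 6 after the correction for GC content and length. Among 36 components of the pathway, 9 were higher and 10 lower (4 and 8 without the 3 libraries and 4 and 8 after the correction for both), with log2 fold changes of 3.18 ± 0.46 for the receptor FZD10 and of -1.18 ± 0.24 for the coreceptor LRP6.

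Of 26 genes of the TGF-beta pathway, 4 were higher and 8 lower (median -0.28), compared with 6 and 8 without the 3 libraries and 7 and 8 after the correction for GC content and length. Over all genes 26.2% were higher and 21.2% lower. LTBP2, a latent TGF-beta binding protein, had 0.90 ± 0.16 (adjusted p = 0.0016), and 0.51 with GC content alone corrected (adjusted p = 0.09). SMURF2, a ubiquitin ligase for SMAD proteins, had -1.12 ± 0.22, and -0.74 without the 3 libraries. BMP genes were higher in 5 and lower in 4 of 13 cases (7 and 4 without the 3 libraries and 3 and 3 after the correction for both), and MSX1, a homeobox target of BMP signalling, had 239.6 to 470.2 CPM (median 385) in Tet2CD libraries, against 66.5 to 105 CPM (median 80) in vector libraries, a change of 2.12 ± 0.13 (adjusted p = 1.4e-06).

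Among 28 enzymes and readers of DNA methylation, 7 were higher, TET2 included, and 8 lower, compared with 4 and 7 without the 3 libraries and 4 and 8 after the correction for GC content and length. With all libraries these counts were near the shares over all genes (26.2% and 21.2%). TET3, a second dioxygenase of the family, had 2.41 to 27.1 CPM (median 14) in Tet2CD libraries, against 18.4 to 56.4 CPM (median 48.3) in vector libraries, a change of -1.51 ± 0.35. OGT, a glycosyltransferase that binds TET proteins, fell by 1.39 ± 0.28. GADD45G, linked to DNA repair and demethylation, rose by 2.63 ± 0.41. After the correction TET3, OGT and GADD45G had -0.91, -0.72 and 1.43, and the imprinted genes CDKN1C and BLCAP had 0.65 and 0.41. Of 17 imprinted genes, 6 were higher and 4 lower, compared with 5 and 4 without the 3 libraries and 5 and 1 after the correction for both. Beside H19, CDKN1C, a CDK inhibitor, rose by 1.51 ± 0.24 and BLCAP by 0.65 ± 0.11, GRB10, an adaptor of the insulin receptor, fell by 0.68 ± 0.15, and IGF2, the neighbour of H19, did not pass (44.5 ± 17.2 CPM in Tet2CD libraries and 37 ± 19.6 CPM in vector libraries, adjusted p = 0.26).

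Germline genes, which promoter methylation often keeps silent, were tested for 8 of 55 listed, since the rest had too few counts. Of these 8, 3 were higher and 1 lower, compared with 3 and 0 without the 3 libraries and 4 and 2 after the correction for GC content and length. The shares over all genes were 26.2% and 21.2% with all libraries. TKTL1, a transketolase-like protein, had 111 to 246 CPM (median 220.0) in Tet2CD libraries, against 0 to 5.35 CPM (median 4.68) in vector libraries, a change of 5.93 ± 0.34 (adjusted p = 1.1e-06). CTCFL, the germline relative of CTCF, had 2.41 to 6.41 CPM (median 3.99) in Tet2CD libraries, against 0 to 0.798 CPM (median 0.508) in vector libraries, and PNMA5 was the third. These members passed a filter that keeps a gene seen in one construct alone, so a member high in one construct had to differ.

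Of 35 hypoxia and glycolysis genes, 5 were higher and 15 lower, where 26.2% and 21.2% of all genes were, compared with 5 and 21 without the 3 libraries and 4 and 22 after the correction for GC content and length. DDIT4, an inhibitor of mTOR signalling, had 54.3 to 121 CPM (median 78.5) in Tet2CD libraries, against 143 to 336 CPM (median 178) in vector libraries, a change of -1.42 ± 0.15, and SLC2A3, a glucose transporter, fell by 0.96 ± 0.12. CA12, a membrane carbonic anhydrase, rose by 4.99 ± 0.45, with 7.74 to 19.2 CPM (median 10.8) in Tet2CD libraries and 0 to 0.869 CPM (median 0.297) in vector libraries. The integrated stress response had 4 higher and 12 lower of 31 (3 and 18 without the 3 libraries and 3 and 16 after the correction for both), with log2 fold changes of -1.02 ± 0.17 for the hormone STC2 and 1.34 ± 0.15 for the factor ATF5. Heat shock proteins and chaperonins had 4 higher and 14 lower of 29, compared with 2 and 17 without the 3 libraries and 2 and 10 after the correction for both. The chaperones HSPD1 and HSP90AB1 fell by 0.75 ± 0.12 and 0.78 ± 0.12, and HSPA5, of the endoplasmic reticulum, had 0.36 ± 0.09, which did not pass with no filter (adjusted p = 0.13) or with libraries 21 to 26 alone (adjusted p = 0.18). After the correction SLC2A3, ATF5, HSP90AB1 and HSPA5 had -0.54, 0.77, -0.51 and 1.00, and HSPD1 had -0.50 with GC content alone corrected.

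In fatty acid metabolism 10 of 31 genes were higher and 8 lower, and in cholesterol synthesis 5 and 9 of 27, against 26.2% and 21.2% of all genes. ACACA, the first enzyme of fatty acid synthesis, had 79.8 to 112 CPM (median 90.2) in Tet2CD libraries, against 129 to 211 CPM (median 163) in vector libraries, a change of -0.83 ± 0.14, and -0.38 after the correction. SREBF1, a factor that drives such genes, had 0.67 ± 0.11, but 0.18 with GC content alone corrected (adjusted p = 0.34). PPARG, a nuclear receptor of lipid metabolism, had 1.56 to 10.2 CPM (median 5.19) in Tet2CD libraries, against 11.4 to 20.5 CPM (median 16.4) in vector libraries. Its common change was -1.65 ± 0.34 (adjusted p = 0.0035). By treatment the change was -3.07 with DMSO, -0.53 with TGFB1 and -1.83 with RepSox, and the interaction of construct and treatment did not pass the threshold. In fatty acid metabolism the counts were 5 and 8 without the 3 libraries and 12 and 8 after the correction for GC content and length, and in cholesterol synthesis 3 and 11 without the 3 libraries and 4 and 10 after the correction for both. Higher and lower members numbered 1 and 4 of 14 for PPARG-linked targets, 3 and 5 of 18 for clock genes, and 4 and 1 of 16 for chemokines and the NF-kB response, and without the 3 libraries 1 and 5, 3 and 3, and 5 and 3. After the correction they were 2 and 6, 3 and 2, and 2 and 3. The chemokine counts differed by a few members only, so no direction is read from them.

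No ribosomal protein gene was higher once libraries 21, 22 and 23 were left out. Of 74 members, 36 were higher and 0 lower with all libraries (median 0.71), and 0 higher and 1 lower without the 3 (median -0.03). The shares over all genes were 26.2% and 21.2% with all libraries, and 17.7% and 19% without the 3. RPLP2, an acidic protein of the large subunit, had 498 to 3337 CPM (median 971) in Tet2CD libraries, against 438 to 603 CPM (median 472) in vector libraries. Its log2 fold change was 1.41 ± 0.42 (adjusted p = 0.019), and 0.16 without the 3 libraries (adjusted p = 0.2). RPS15 and RPS27, of the small subunit, had 1.28 and 1.04 with all libraries and 0.20 and 0.19 without. S100A4, a short calcium-binding protein, had 1.17 and -0.03. After correction for GC content and length 0 ribosomal protein genes were higher and 26 lower. Many of these genes also have near-identical pseudogenes.

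Markers were checked for the labelled cell type and for others. Of 8 measured colon epithelial markers 5 were higher and 0 lower, where 26.2% and 21.2% of all genes were. The counts were the same without libraries 21, 22 and 23. With GC content and length also corrected and those libraries left out, 5 were higher and 3 lower. The 12 listed summed to 8985 to 27141 CPM per Tet2CD library and 7131 to 12507 CPM per vector library. Blood cell markers summed to 19.1 to 47 CPM in Tet2CD libraries and 14.9 to 18 CPM in vector libraries, and 11 of 18, PTPRC, CD3D and CD3E among them, had at most 12 counts in all 12 libraries together. CD4 rose by 2.54 ± 0.20, with 10.5 to 18.1 CPM (median 12.2) in Tet2CD libraries and 1.33 to 2.97 CPM (median 2.32) in vector libraries. Endothelial markers summed to 19.5 to 30.2 CPM in Tet2CD libraries and 6.54 to 11.8 CPM in vector libraries, with CDH5 and KDR at 0 counts, and ESAM rose by 2.56 ± 0.31. Fibroblast markers summed to 622 to 2916 CPM in Tet2CD libraries and 484 to 668 CPM in vector libraries, most of it S100A4, while LUM, PDGFRA, FAP and POSTN had at most 12 counts each over the 12 libraries. Of the members measured, 1 of 5 blood cell, 2 of 3 endothelial and 4 of 6 fibroblast markers were higher and 0 lower, and 1, 3 and 4 without libraries 21, 22 and 23. With both properties also corrected and those libraries left out, 1 blood cell and 1 fibroblast marker were lower. Those higher with all libraries included VWF, MMP2 and COL1A1 (log2 fold changes 1.08, 1.95 and 1.09), FBLN1 and S100A4. The part of other cells in the results was not tested.

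The Tet2CD effect was also estimated within each treatment, 2 libraries against 2. With DMSO 171 genes were higher and 25 lower (1.21% and 0.176% of 14167, together 1.38%), with TGFB1 659 and 261 (4.65% and 1.84%, together 6.49%), and with RepSox 271 and 37 (1.91% and 0.261%, together 2.17%). These counts do not show that the treatments differed, since leaving out any 1 of the 4 libraries of a contrast moved each of them by over 1.5 times. The interaction of construct and treatment was past the threshold for 0 genes by edgeR's quasi-likelihood test, and 265 genes (1.87%) had an unadjusted p under 0.05. Of the 6721 genes called over all treatments, 6701 (99.7%) had the same sign in each of the 3. That share follows in part from the choice, since these genes were called on the same libraries. SPARC, CDX2 and MKI67 had log2 fold changes with DMSO, TGFB1 and RepSox of 6.06, 4.32 and 4.37, of 1.29, 2.15 and 1.33, and of -1.40, -1.72 and -1.20.

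The interaction passed for 3 genes without libraries 21, 22 and 23. NEURL1B, a ubiquitin ligase of the Notch pathway, had a log2 fold change of 3.35 in TGFB1-treated cells, against 1.04 in DMSO and 0.69 in RepSox (adjusted p = 0.015). GALNT4, a glycosyltransferase, had 7.83 in TGFB1, -7.98 in DMSO and -8.01 in RepSox (adjusted p = 0.023) at levels of 0 in several libraries of both constructs, and the third gene has no symbol. They were named because the count is small, after their values were seen, and with all 12 libraries NEURL1B had an adjusted p of 0.49.

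In SW620 cells TET2 rose by 6.14 on the log2 scale, so that the difference between the lines, 0.06, did not pass (adjusted p = 0.98). The Tet2CD effect in SW480 minus that in SW620 was past the threshold for 1564 higher and 1519 lower of 15302 genes (10.2% and 9.93%). Of the 6721 genes called in SW480, 2840 (42.3%) also differed from SW620 in the same direction. H19 rose in SW480 by 7.31 more than in SW620 on the log2 scale, AFAP1-AS1 by 6.59 and CDX2 by 1.59, and the effect on MKI67 differed by -1.28. The difference for SPARC could not be estimated with a usable error, and for RORA it was 0.03 ± 0.40 (adjusted p = 0.99).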

How the data were processed

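RNA was extracted with TRIzol, and TruSeq libraries were sequenced on a NextSeq 500. The authors estimated expected counts, TPM and FPKM per gene with RSEM and deposited 1 table per library with all 3 units. The processing notes name Bowtie, RSEM and mm10 without versions, although the gene identifiers are human. The methods mention a normalization for GC content, and the sources used here do not say how it entered the deposited values. TPM and FPKM were not used here.

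After rounding, expected counts were analysed with edgeR 4.0.16 in R 4.3.3 (filterByExpr, TMM scaling, quasi-likelihood test, Benjamini-Hochberg adjustment over all 14167 genes tested, threshold 0.05), with treatment as a block and construct as the tested term (8 residual degrees of freedom, biological coefficient of variation 26.6%). Effects within treatments and the interaction came from 1 fit of 6 group means, and the comparison with SW620 from a fit of all 24 libraries with 12 group means. Values are TMM-scaled CPM (counts relative to the library total). Errors of log2 fold changes are approximate standard errors, namely the size of the change divided by the square root of the test's F statistic. They may be too small for genes with few vector counts, such as AFAP1-AS1 with 6 in all vector libraries. Levels are not set between genes. Gene positions and properties came from GENCODE 29, which held 98.2% of the 33382 identifiers. On simulated data with 200 changed genes the fit was tested before use. The simulation had no trend with GC content or length and no libraries that stood apart. It therefore does not vouch for calls under those conditions.

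The genes named were the 12 with the largest increase and the 12 with the largest decrease among those with a mean log2 CPM of at least 1, past the threshold with and without libraries 21, 22 and 23 and without overlap between constructs, up to 3 members in each direction per list, and TET2, RORA, SPARC, CDH1 and CTNNB1. The text gives those of them whose role could be stated, and a few are not reported here. The members and lists were chosen with earlier results of these data known. Libraries ranged between 2146123 and 4199283 counts, with 2 libraries per group. Alternatives were another scaling, no filter, DESeq2 1.42.0, limma 3.58.1 voom with quality weights, offsets for GC content and for length, other sets of libraries, and each library left out.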

Additional observations from a re-analysis of the deposited data

Results flagged for a closer look

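For 11 of 206 combinations of a named gene and a construct, 1 library lay far from the other 5, and chance alone gives about 1 in 20. In the Tet2CD group these were XG in library 21 (12.5 CPM), LINC02617 in library 22 (1.63 CPM), COL6A2 and GADD45G in library 23 (84.5 and 15.7 CPM) and OGT in library 34 (452 CPM). In the vector group they were XG in library 38 (0.231 CPM), CKM in library 26 (0.297 CPM), SPTSSB in library 38 (12.7 CPM), LAMC3 in library 36 (0 CPM), TPM2 in library 37 (36.7 CPM) and RPLP2 in library 26 (603 CPM). No single library accounted for more than 2 of them.

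The Tet2CD effect differed between SW480 and SW620 for 71 of the 103 genes named, and all 71 were larger in size in SW480, the line in which they were chosen. For IFITM1, RNASE1, TKTL1, XG, CKM, NPTX1, PNMA5, SPTSSB, PLEK and SPARC the difference could not be estimated with a usable error. The same held for RAB34, FOXC2, MMP2, ITGB2 and GADD45G. The absence of all these genes from the 71 therefore does not show that the lines were alike. The values that follow are the log2 effect in SW480 minus that in SW620. Among genes with the largest increases it was 7.30 for H19, 6.59 for AFAP1-AS1, 6.93 for RENBP, 6.58 for PTGDS and 3.14 for CALML3. Among those with the largest decreases it was -3.69 for ZFPM2, -2.88 for LINC00630, -3.32 for FLG, -3.08 for B3GALT5, -3.18 for LINC02617, -2.67 for BCAN-AS2, -3.45 for DIRAS2, -4.03 for CFAP298-TCP10L and -2.57 for LIMS3.

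In the cell cycle the difference was -1.28 for MKI67, -0.83 for CENPF, -0.89 for MCM2, -0.78 for POLE, 0.73 for CCND3 and 0.91 for CDKN2C. For the response to growth factors it was -1.04 for EGR1, -0.92 for DUSP5 and -0.97 for TRIB1. In the interferon and antigen presentation lists it was 1.72 for MX1, 3.94 for BST2, -1.01 for OAS3, 1.53 for HLA-B, 1.81 for HLA-F and -0.65 for TAP2.

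For matrix, integrin and cytoskeletal genes the difference was 5.07 for LAMC3, 2.98 for FBLN1, 4.61 for COL6A2, -1.22 for LAMA3, -0.68 for LAMA5, -2.05 for ITGA2, 4.07 for TPM2, -1.10 for MSN and -0.64 for FLNA. For intestinal and epithelial genes it was 1.59 for CDX2, 0.83 for VIL1, 1.07 for HNF4A, 1.49 for KLF4, -0.89 for KLF5, 3.0 for ANPEP, 5.03 for PRSS8, -1.03 for CLDN1, 1.80 for CLDN3, 2.16 for KRT7, -1.55 for KRT23 and 0.76 for CDH1. In the WNT, TGF-beta and BMP pathways it was 1.66 for NOTUM, 3.51 for FZD10, -0.84 for LRP6, -1.07 for SMURF2 and 1.86 for MSX1.

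For enzymes linked to DNA methylation and imprinted genes the difference was -1.38 for TET3, -1.16 for OGT, 1.17 for CDKN1C, -0.67 for GRB10 and 0.55 for BLCAP. Stress and lipid genes had 5.88 for CA12, -1.27 for DDIT4, -0.70 for SLC2A3, -1.21 for STC2, -0.69 for HSPD1, -0.66 for HSP90AB1, -1.82 for PPARG and -1.02 for ACACA. The remaining values were 1.49 for RPLP2, 2.53 for CD4 and 3.36 for ESAM. Without libraries 21, 22 and 23 the count of all genes with a difference was 1189 higher and 1888 lower.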

How the results depend on the processing

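The counts over all treatments, 3718 higher and 3003 lower, stayed within 1.5 times under another scaling (3622 and 3175), no filter (3891 and 3476), DESeq2 (3898 and 3508), voom with quality weights (3286 and 3044), a GC offset (3351 and 3018), all 24 libraries (4466 and 3870) and no treatment block (3721 and 3039). They moved further only without libraries 33, 34 and 35 (4836 lower) and with libraries 33 to 38 alone (2374 higher). Leaving out 1 library at a time gave 2752 to 4130 higher and 2100 to 3527 lower. Main calls that were kept fell to 69.2% without libraries 21, 22 and 23 and to 50.5% when GC content and length were corrected too.

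Within treatments, no filter gave 617 higher and 422 lower genes with DMSO, 1714 and 1153 with TGFB1 and 1529 and 1147 with RepSox, and 52 genes for the interaction. The counts without libraries 21, 22 and 23 were 517 and 366, 1282 and 1093, and 651 and 457, and 3 for the interaction; the lone Tet2CD library is then assumed to vary like the other groups. With 1 library left out, DMSO ran between 4 and 47 higher and 0 and 2 lower, TGFB1 between 39 and 1382 and between 4 and 900, and RepSox between 4 and 2501 and between 0 and 2058. The causes were not tested.

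S100A4 was -0.034 without libraries 21, 22 and 23 and -0.22 with both offsets too. RORA was -0.38 without libraries 33, 34 and 35, -0.34 with libraries 21 to 26 alone, and between -0.025 and 0.31 with 1 library left out. With both offsets RPS15 was -0.26 and RPS27 -0.11, and without the 3 libraries RPS15 was then -0.20 and RPLP2 -0.10. Of 101 named genes past the threshold, 7 lost their call or turned when 1 library was left out (CTNNB1, OAS3, RPLP2, RPS15, RPS27, S100A4 and TAP2) and 10 under another setting (these 7, HSPA5, LTBP2 and SREBF1). No paired analysis was possible because the labels number the libraries but give no replicate numbers that pair them. A block for the 2 runs of library numbers (21 to 26 and 33 to 38) could be fitted, and with it 4174 genes were higher and 3800 lower, and 100% of the calls were kept.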
